A study of Mus musculus with 6 samples.

Results

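Slc6a11 Agt astrocytes with little Gfap were taken from snRNA-seq of 6 mouse brains as nuclei that met a rule on raw unique molecular identifiers (UMIs), the counted transcript molecules. A nucleus had at least 3 UMIs in the sum of the astrocyte genes Gja1, Aqp4, Ntsr2, Slc39a12 and Fgfr3, at least 4 UMIs of Slc6a11 and Agt together, at most 1 UMI of Gfap, at most 1 UMI of the oligodendrocyte genes Mog and Mag together and no UMI of the microglial gene Csf1r. Barcodes with fewer than 300 genes or over 1% mitochondrial UMIs were left out. The rule found 3188 nuclei among the 60724 kept of 63383 deposited barcodes. These 11 genes chose the members, so their levels are a description and were not tested. Mitochondrial genes entered the choice only through the 1% limit and were tested.

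The study asked how lysophosphatidic acid (LPA), a signaling lipid of blood, changes the neonatal brain in a mouse model of post-hemorrhagic hydrocephalus. C57BL/6 S-56 mice received 5 µl of LPA, or of its carrier (vehicle, 0.01% bovine serum albumin), in the right lateral ventricle at P7, and brains without olfactory bulbs and cerebellum were collected at P15. Each of the 3 LPA and 3 vehicle libraries came from a single mouse, and nuclei without the neuronal protein NeuN were sorted before 10x 3′ v3 library preparation with 10000 nuclei targeted. The LPA concentration of these libraries is not given in the sources used here, and all 6 mice were injected. The LPA libraries held 50737541, 53380143 and 54715094 UMIs and the vehicle libraries 48852970, 65688644 and 55864168. Pairs of libraries shared 268 to 303 barcode sequences, and 3 shared sequences were members in both libraries of a pair.

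Astrocytes clear transmitters and potassium from the space around neurons, and their gene programs differ by brain region. Slc6a11 encodes the GABA transporter that astrocytes carry most, and Agt encodes angiotensinogen, the precursor of the angiotensin peptides, which the brain makes mainly in astrocytes. Astrocytes with much Slc6a11 and Agt are known from the thalamus, hypothalamus, midbrain and brainstem, whereas cortical astrocytes carry more of genes such as Lhx2 and Mfge8. Gfap, an intermediate filament, marks astrocytes of white matter and surfaces and rises in reactive astrocytes.

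The members were carried mainly by Slc6a11. In the 3 LPA libraries they held 6.68, 6.73 and 6.19 Slc6a11 UMIs per nucleus, and in the 3 vehicle libraries 6.11, 5.99 and 5.83. For Agt the values were 0.799, 0.767 and 0.762 in LPA libraries and 0.924, 0.846 and 0.663 in vehicle libraries. These are raw counts, and members were deeper with LPA, at median totals of 3944, 3821 and 3974 UMIs against 3668, 3660 and 3219. Both genes were detected in 1537 members (48.2%), Slc6a11 without Agt in 1647 (51.7%) and Agt without Slc6a11 in 4. The median sum of both genes was 6 UMIs and the highest 30. Of the members, 692 (21.7%) sat at the limit of 4 UMIs, and 966 nuclei that met all other parts of the rule had 3. Just inside the limit, nuclei carried Itih3 at 122 and Slc6a9 at 90.4 plain CPM (UMIs scaled to the same total in each class or library, without TMM), and just outside it at 78.0 and 56.2. No Gfap UMI was found in 89.0% of members. In the genome (GRCm38), Slc6a11 lies at chr6:114131241-114249952 on the plus strand. Hrh1, the histamine H1 receptor gene, lies further on at chr6:114397936-114483296 on the same strand. Agt lies at chr8:124556534-124569706 on the minus strand.

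Astrocyte genes outside the rule were abundant in members. Counted at full depth, Aldh1l1, an astrocyte enzyme of folate metabolism, was detected in 49.8% ± 5.19 (SD, n = 6 libraries) of members. It was detected in 2.23% ± 0.680 of oligodendrocytes. These are nuclei with at least 4 UMIs of Mog and Mag and at most 1 of the 5 astrocyte genes. Oligodendrocytes were thus chosen for little astrocyte RNA, so this share does not measure what free RNA can give. Median UMIs by library ran from 3219 to 3974 in members and from 4759.5 to 6846.5 in oligodendrocytes. Sets of regional factors were counted after thinning to 2000 UMIs, which left out 80 members, 351 other astrocytes with little Gfap and 67 oligodendrocytes. The glutamate transporter gene Slc1a2 was detected in 99.9% of members, Slc1a3 in 96.6% and the bicarbonate cotransporter gene Slc4a4 in 99.9%, again at full depth. Slc1a2 was also detected in 53.7% of oligodendrocytes, so its share alone says little. The median member had 3731.5 UMIs and 1950.5 genes. Scrublet, which scores barcodes for likeness to simulated doublets, called 23.5% of members. By library it called 23.3%, 17.0% and 23.3% with LPA and 24.2%, 25.0% and 28.4% with vehicle, without overlap. Of all kept nuclei it called 21.9%, 17.2% and 17.5% with LPA and 19.6%, 20.1% and 18.7% with vehicle. RNA of other cell types was present: neuronal genes summed to between 3508 and 5150 plain CPM over the 6 libraries, of which Meg3 gave the most, and none of the 14 listed neuronal genes was at 0.

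To describe what sets these nuclei apart, they were compared with the 5106 other astrocytes with little Gfap, which met the same rule but had at most 1 UMI of Slc6a11 and Agt. UMIs were summed per library and class, scaled by TMM and tested with edgeR's quasi-likelihood test with the library as a block, and a gene was called where the adjusted p lay under 0.05 and the log2 fold change was 0.25 or more in either direction. Of 13654 genes tested, 3381 were called (24.8%), 1390 higher (10.2%) and 1991 lower (14.6%) in members. Without TMM the split was 922 higher and 2811 lower. The 6 libraries served both classes, and the differences are between nuclei sorted by the 2 genes of the rule. The other class held nuclei with much RNA of ependymal, choroid plexus and meningeal cells, and 87.3% of its nuclei had Slc1a2 at full depth. The comparison was therefore repeated, after the data were seen, with at least 5 Slc1a2 UMIs asked of both classes. It then called 1569 of 13142 genes (11.9%), 747 higher (5.68%) and 822 lower (6.25%), and values under it are given as those of Slc1a2-rich nuclei. Levels are given as CPM after TMM scaling unless called plain. Genes beyond those taken by rule (the lowest p in each list and the largest differences), such as Pax3, Irx2, Abat, Aldh5a1, Cst3, Cox8a, Igf2 and Ptgds, were chosen after their values were seen.

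Levels of regional genes differed between the classes. Of 15 tested genes known from astrocytes behind the telencephalon (12 transcription factors and the astrocyte genes Itih3, Sparc and Slc6a9), 10 were higher and 5 lower in members, with a median log2 fold change of 1.19 beside 0.0022 over all genes. A gene could pass the filter on low counts through 1 class alone, in either direction. Genes near the floor in the other class, such as Irx2, could thus be tested through members, which can raise this count and median. Irx2, an Iroquois factor of diencephalon, midbrain and hindbrain, ranged from 8.26 CPM over a median of 12.2 to 17.7 in members and from 0.849 over 2.07 to 3.34 in the other class (log2 fold change 2.47 ± 0.247 SE, adjusted p = 2.2e-07). Pax3, a dorsal midbrain and hindbrain factor, ranged from 5.26 over 20.0 to 31.3 CPM in members and from 2.40 over 3.67 to 6.51 in the other class (2.33 ± 0.187). The classes did not overlap for Irx2 but did for Pax3, whose lowest member library lay below the highest of the other class. Irx1 (2.27), Irx5 (2.11), Nkx6-2 (1.6) and Nkx2-2 (1.11), factors of the ventral and posterior neural tube, were also called higher and remained so in Slc1a2-rich nuclei. Zic2 (-1.32) and Lef1 (-1.01) were lower in both fits. Otx2, a forebrain and midbrain factor, was lower with all nuclei (-0.63 ± 0.169) and higher in Slc1a2-rich nuclei (1.5 ± 0.159), and Zic1 and Zic4 were lower only with all nuclei.

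The 9 tested telencephalic genes gave 5 lower and none higher, with a median of -0.416. Lhx2, a LIM homeobox factor of cortical precursors and astrocytes, ranged from 17.6 CPM over 20.1 to 30.8 in members and from 33.1 over 40 to 41.8 in the other class (-0.80 ± 0.102, adjusted p = 4.9e-06). Among the others, Emx2 (-0.64), Dmrta2 (-0.81) and Nr2e1 (-0.47), which pattern the forebrain, were lower as well, in each of the 6 libraries. In Slc1a2-rich nuclei all 9 were lower, with a median of -0.821. Along the sum of Slc6a11 and Agt UMIs the level of Lhx2 was not monotonic: it stood at 33.2, 49.3 and 50.5 plain CPM in nuclei with 0, 1 and 2 UMIs, at 40.3 with 3, and at 34.8, 25.7 and 18.2 with 4, 5 and 6. Few nuclei carried these factors at all. At full depth, Irx2 was detected in 5.33% ± 1.27 of members, 0.865% ± 0.306 of the other class and 0.659% ± 0.256 of oligodendrocytes. Lhx2 was detected in 8.67% ± 1.27, 14.2% ± 1.18 and 1.62% ± 0.547. Counted over 5 telencephalic and 13 posterior factors, 8.37% ± 1.11 of thinned members had a telencephalic factor only, 21.4% ± 2.63 a posterior factor only and 68.9% ± 2.18 neither (13.4%, 31.1% and 47.9% without thinning). In the other class these shares were 17.1% ± 1.37, 22.6% ± 5.66 and 57.8% ± 4.84 (23.5%, 26.1% and 42.5% without thinning). In oligodendrocytes, chosen with little astrocyte RNA, they were 2.02%, 5.38% and 92.5% (5.94%, 13.79% and 78.5%). The posterior share did not separate the classes when thinned.

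**Figure D1:**
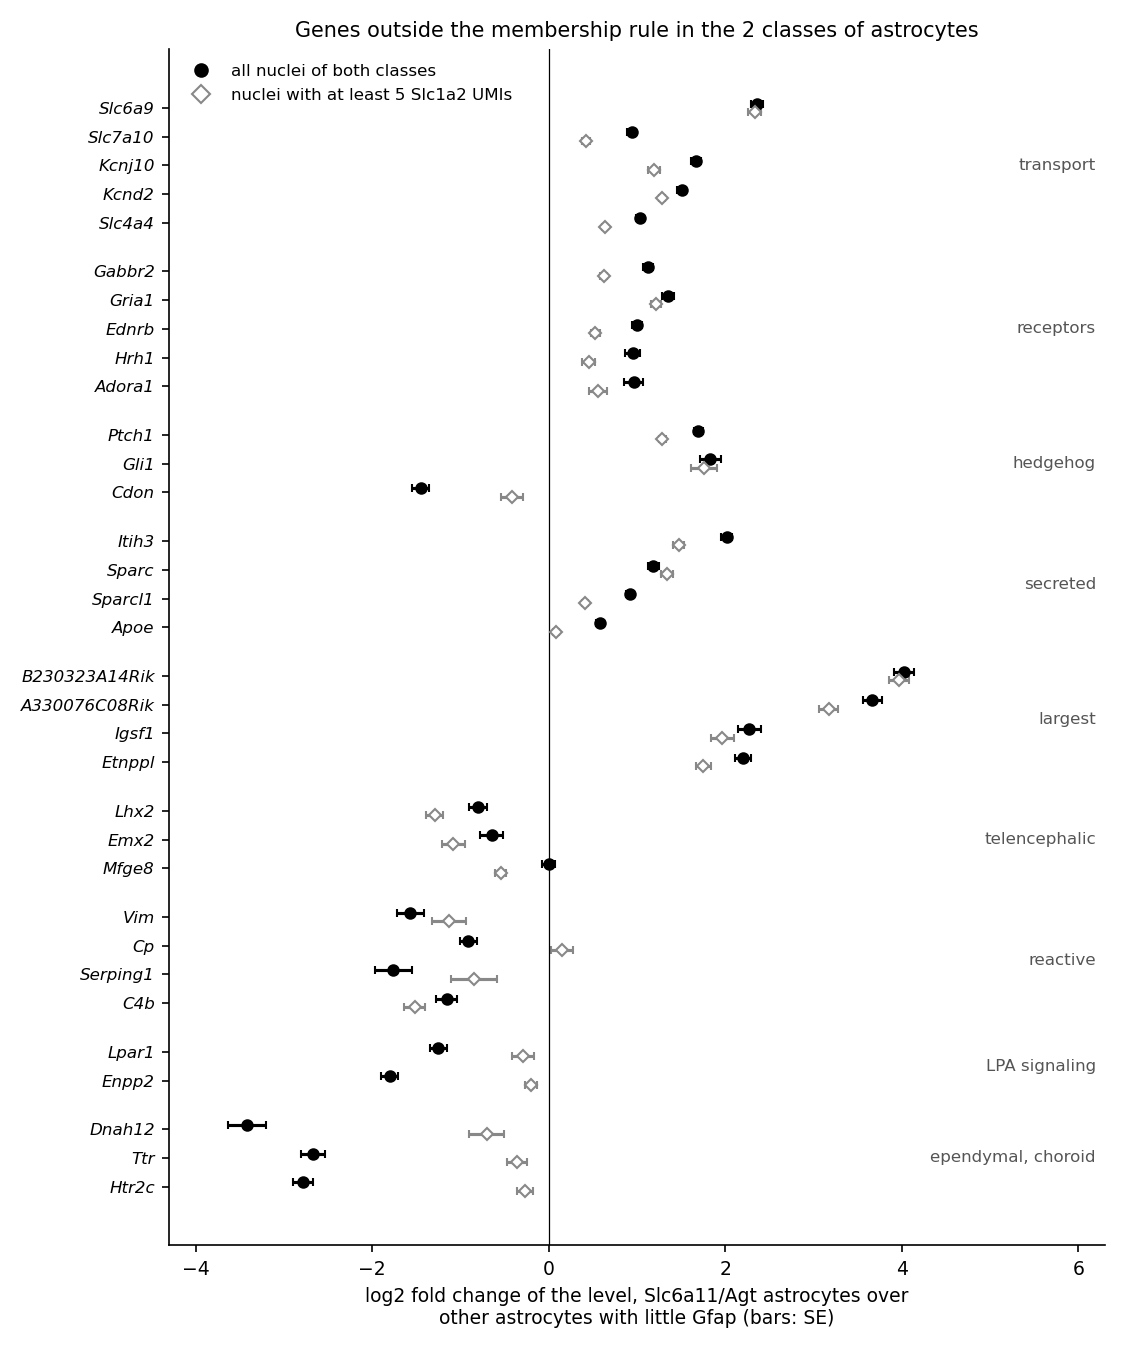
Log2 fold change of genes in Slc6a11 Agt astrocytes against other astrocytes with little Gfap, by gene group, with bars for the standard error; filled points use all nuclei and open diamonds nuclei with at least 5 Slc1a2 UMIs. Slc6a9, Ptch1 and B230323A14Rik lie to the right in both fits, Lhx2 and Emx2 to the left, and Cp changes side between the fits.

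Genes of GABA and glycine handling were higher. Of 9 tested, 6 were called higher and 1 lower, with a median of 0.757 (5 and 2 in Slc1a2-rich nuclei, median 0.392). Slc6a9, which encodes the glycine transporter of glia, ranged from 101 CPM over 124 to 139 in members and from 21.0 over 24.1 to 27.5 in the other class (2.36 ± 0.0707, adjusted p = 7.6e-14). The classes did not overlap, and the fold was nearly the same in Slc1a2-rich nuclei (2.33 ± 0.0739). Slc6a9 lies at chr4:117834506-117875198 on the plus strand, and Gm17114, a noncoding gene on the opposite strand within it, was higher too (2.29 ± 0.131). Slc7a10, a transporter of small neutral amino acids that carries glycine and D-serine, reached 0.94 ± 0.0507, and the GABA-degrading enzymes Abat and Aldh5a1 reached 0.76 and 0.87. Slc6a13, a GABA transporter of meninges and vessels, was the lower gene (-1.16 ± 0.116) and did not differ by the test in Slc1a2-rich nuclei (-0.13, adjusted p = 0.61). Glul, glutamine synthetase, was level with all nuclei (-0.0022) and lower in Slc1a2-rich nuclei (-0.48 ± 0.0445).

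Receptors for GABA followed: 7 of 10 were higher and none lower (median 0.364), and in Slc1a2-rich nuclei 3 were higher and 1 lower (median 0.153). Gabbr2, a subunit of the metabotropic GABA-B receptor, ranged from 733 over 809 to 1037 CPM in members and from 267 over 409 to 466 in the other class (1.13 ± 0.0592), and its partner Gabbr1 gave 0.50 ± 0.0465. In Slc1a2-rich nuclei Gabbr2 (0.62) and Gabrg1 (0.35), a subunit of the GABA-A receptor, stayed called and Gabbr1 did not (0.10, adjusted p = 0.098). Receptors for other transmitters were higher in 8 of 13 genes and lower in 2. The endothelin receptor gene Ednrb (1.00 ± 0.0604), the adenosine receptor gene Adora1 (0.96 ± 0.107) and Hrh1 (0.95 ± 0.0861), which lies in the same stretch of chromosome 6 as Slc6a11, were the 3 of lowest p, and all stayed called in Slc1a2-rich nuclei (0.53, 0.56 and 0.45).

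Ion transport genes were higher in 8 of 13 and lower in 2 (median 0.473, in Slc1a2-rich nuclei 0.118). Kcnj10, the Kir4.1 channel through which astrocytes take up potassium, ranged from 179 over 195 to 233 CPM in members and from 55.5 over 64.1 to 65.3 in the other class (1.67 ± 0.0563, adjusted p = 3e-13). Kcnd2, a voltage-gated potassium channel (1.51 ± 0.0491), and Slc4a4 (1.03 ± 0.0468) were higher too. The 3 genes kept their calls in Slc1a2-rich nuclei, at 1.19, 1.29 and 0.63. Of 11 genes of glutamate uptake and receptors 7 were higher and 1 lower (median 0.286), and in Slc1a2-rich nuclei 4 were higher and 4 lower (median -0.176). The AMPA receptor gene Gria1 was higher (1.35 ± 0.0636), Slc1a2 was not called with all nuclei (-0.09 ± 0.0565, adjusted p = 0.26) and lower in Slc1a2-rich nuclei (-0.65), where the gene also chose the nuclei, and Grm3, a metabotropic glutamate receptor, was lower in both (-0.27 ± 0.0517 and -0.82 ± 0.0327).

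The largest lower genes were Ttc29 (-3.48), Tmem212 (-3.47) and Dnah12 (-3.42), genes known from ciliated cells, which in Slc1a2-rich nuclei stood at -1.24, -0.60 and -0.70, the middle one not called. Of the higher genes, the noncoding B230323A14Rik, at chr9:69758740-69830845 and overlapping Foxb1 on the opposite strand, ranged from 115 over 124 to 153 CPM in members and from 5.86 over 7.52 to 10.0 in the other class (4.03 ± 0.111). A330076C08Rik (3.67 ± 0.108) and Gm35722 (2.80 ± 0.196), further noncoding genes, Igsf1, an immunoglobulin superfamily gene (2.27), Etnppl, an enzyme of phosphoethanolamine breakdown (2.20), and Cdh22, a cadherin (2.12), followed. All 6 stayed higher in Slc1a2-rich nuclei, at 1.75 to 3.97. Genes of hedgehog signaling were among the rest: Ptch1, the hedgehog receptor and a target of the pathway, ranged from 607 over 646 to 750 CPM against 168 over 205 to 235 (1.7 ± 0.0492), and Gli1, a target and effector, reached 1.83 ± 0.122, whereas Cdon, a coreceptor, was lower (-1.45 ± 0.0977). Over the list of Notch, BMP and hedgehog genes, 9 of 22 were higher and 5 lower, and in Slc1a2-rich nuclei 4 were higher and 2 lower (median 0.074). The matricellular gene Sparc (1.19 ± 0.0616), its relative Sparcl1 (0.92 ± 0.0457), the hyaluronan-binding inhibitor gene Itih3 (2.01 ± 0.0655) and the glycogen phosphorylase Pygm (1.39 ± 0.0802) were higher in both fits. Apoe, the main lipid carrier of astrocytes, was higher with all nuclei (0.58 ± 0.0471) and not called in Slc1a2-rich nuclei (0.08, adjusted p = 0.15). Of 22 genes of lipid transport and sterol synthesis, 9 were higher and 0 lower with all nuclei (median 0.140). In Slc1a2-rich nuclei 2 were higher and 10 lower (median -0.224).

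The genes of reactive astrocytes that were called were lower in members. Of 8 tested pan-reactive genes 6 were lower and none higher (median -0.900). Of 6 genes of the neuroinflammatory type 3 were lower (median -0.801). In Slc1a2-rich nuclei 4 of 7 (median -0.829) and 3 of 6 (median -0.551) were lower. All 4 tested genes of the ischemic type were lower (median -1.09), and 1 of 3 in Slc1a2-rich nuclei (median -0.030). The filament gene Vim (-1.57 ± 0.148), the hyaluronan receptor Cd44 (-1.39 ± 0.194) and the complement gene C4b (-1.16 ± 0.124) were lower in all 6 libraries and in Slc1a2-rich nuclei. Reads of C4b may be shared with its close copy C4a. The ferroxidase Cp was lower with all nuclei (-0.91) and not in Slc1a2-rich nuclei (0.15). In the thyroid hormone list, Hr, a target of the hormone's receptor, was higher (1.76 ± 0.123) and the hormone transporter Slco1c1 (-0.69 ± 0.0529) lower, in both fits. Of 14 listed angiotensin pathway genes beside Agt 7 were tested. None was higher, and Ace (-1.32), Agtr1b (-1.48) and Anpep (-1.49) were lower, beside 10.2% higher and 14.6% lower over all genes. With 7 genes, none higher lies near the share over all genes. Ace reached at most 3.90 CPM in members and Agtr1b 5.62, and neither was tested in Slc1a2-rich nuclei, where Anpep was not called (-0.26, adjusted p = 0.58). All 10 ependymal and choroid plexus genes (median -2.83) and 9 of 12 vascular and meningeal genes were lower. Ttr, the choroid plexus carrier of thyroid hormone, ranged from 37.6 over 63.3 to 106 CPM in members and from 220 over 472 to 759 in the other class. In Slc1a2-rich nuclei 3 of 7 tested and 1 of 12 remained lower. The part of such RNA in differences of other genes was not tested beyond the values in Slc1a2-rich nuclei.

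**Figure D2:**
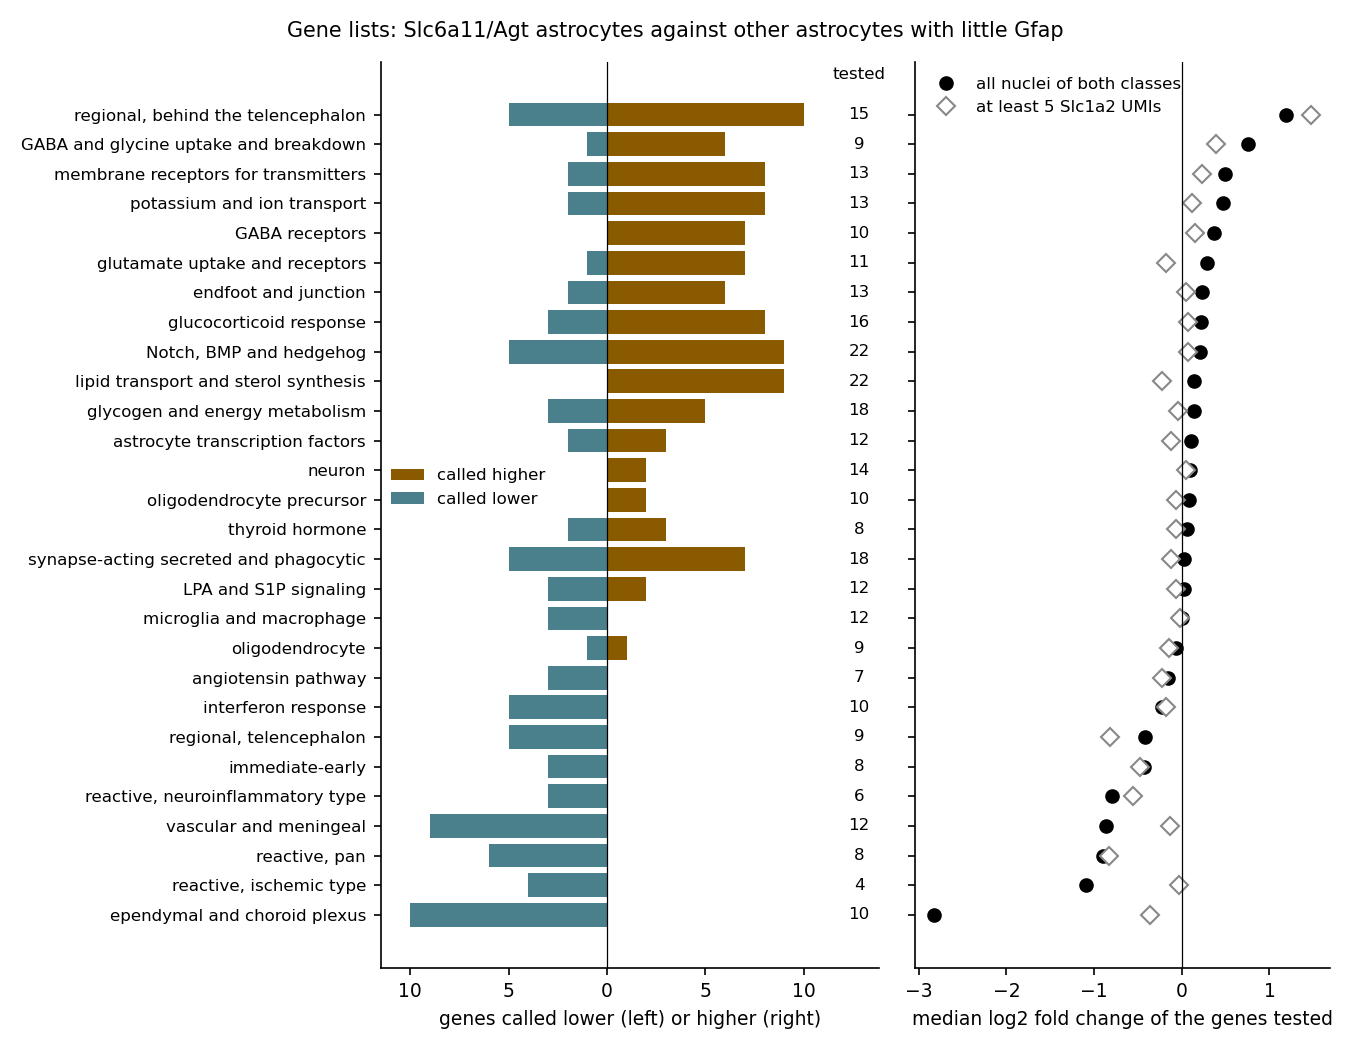
Gene lists in Slc6a11 Agt astrocytes against other astrocytes with little Gfap: at left the number of genes called higher or lower, with the number tested, and at right the median log2 fold change with all nuclei (filled) and with at least 5 Slc1a2 UMIs (open). The median of the ependymal and choroid plexus list moves from -2.83 to -0.361 with the Slc1a2 minimum, and that of the telencephalic list from -0.416 to -0.821.

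Against the 587 Gfap-rich astrocytes, which had at least 4 Gfap UMIs and any Slc6a11 and Agt, 1417 of 11942 genes were called (11.9%), 633 higher (5.30%) and 784 lower (6.57%) in members. Without LPA replicate 1, 928 were called. A330076C08Rik (3.38 ± 0.246), Fam227b (2.45), B230323A14Rik (2.42), Gli1 (2.39) and Etnppl (2.34) were the largest higher genes. Myoc, a secreted protein of surface astrocytes, had 5.34 CPM ± 3.82 (SD, n = 6) in members and 492 ± 419 in Gfap-rich astrocytes (-6.17 ± 0.381), and C530044C16Rik, Ggta1, Atoh8 and Thbs4 followed at -4.95 to -4.26. Of 7 pan-reactive genes 6 were lower (median -2.44), and 9 of 14 posterior genes were higher (median 1.31). Here too a gene could pass the filter on low counts through 1 class alone. Gfap-rich astrocytes of vehicle libraries numbered only 31, 37 and 27 nuclei.

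The share of members did not differ between the treatments by more than the spread between mice. Members made up 6.25%, 5.68% and 4.67% of kept nuclei in LPA libraries (95% binomial intervals, counting error only, of 5.75 to 6.79, 5.24 to 6.14 and 4.25 to 5.12) and 6.01%, 4.92% and 4.46% in vehicle libraries (5.50 to 6.55, 4.55 to 5.32 and 4.10 to 4.84). The groups overlapped widely. The means were 5.53% ± 0.801 and 5.13% ± 0.798 (SD, n = 3 each), a difference of 0.403 (two-sided exact permutation test, p = 0.7, smallest possible p 0.1). Of all nuclei with the 5 astrocyte genes the share was 18.8% ± 1.41 with LPA and 20.5% ± 2.96 with vehicle, a difference of -1.68 (p = 0.6, exact permutation test). Other astrocytes with little Gfap made up 8.61% ± 0.334 and 8.19% ± 0.402 (p = 0.3, exact permutation test). Gfap-rich astrocytes made up 1.78% ± 0.279 and 0.300% ± 0.0817, and these groups did not overlap (p = 0.1, exact permutation test, the smallest possible). The Gfap limit of the rule took away 11.5%, 8.25% and 13.5% of nuclei that had met its Slc6a11 and Agt part in LPA libraries and 7.12%, 5.87% and 3.26% in vehicle libraries, so that it removed more nuclei in each LPA library than in any vehicle library.

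**Figure D3:**
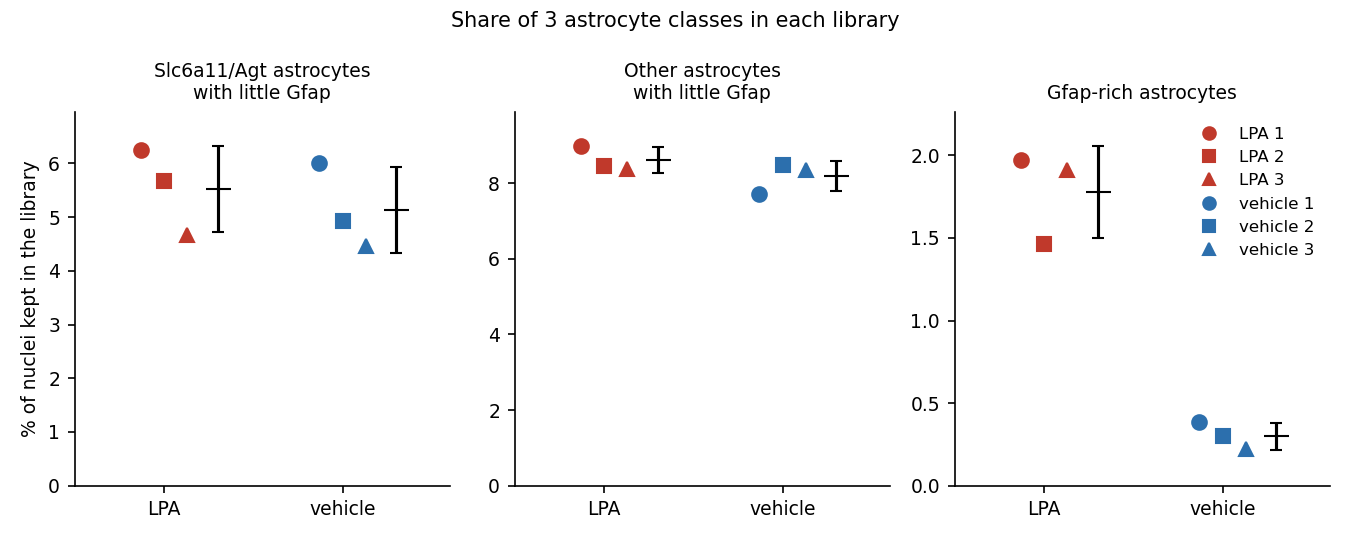
Share of kept nuclei (%, axis from 0) in Slc6a11 Agt astrocytes, other astrocytes with little Gfap and Gfap-rich astrocytes, with 1 point per library and bars for mean ± SD of 3 libraries. With the main limits shown, only the Gfap-rich shares separate LPA from vehicle libraries.

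LPA against vehicle was tested in members on their summed UMIs, which numbered 2901301, 2820296 and 2389567 in LPA libraries and 2566243, 2924880 and 2397498 in vehicle libraries. Of 13258 genes, edgeR called 63 (0.475%), 12 higher (0.0905%) and 51 lower (0.385%) with LPA, the latter 41 nuclear and 10 mitochondrial genes. DESeq2 called 22 higher and 40 lower, and edgeR without TMM 5 and 61. At an unadjusted p under 0.05 there were 1409 genes (10.6%). Sex was not balanced: Xist was high in LPA 2, LPA 3 and vehicle 2, and with a term for it 40 genes were called, among them 3 of the 12 higher, 28 of the 41 nuclear lower and 7 of the 10 mitochondrial genes. All 63 genes kept their sign with this term, at a median of 0.987, 0.995 and 0.992 of their log2 fold change in the 3 groups. Without Scrublet's doublet calls 44 genes were called, among them 3, 8 and 9, and of the 35 of the 41 nuclear lower genes that could be tested, 34 kept their direction and Foxp2 did not (0.04). Of these 35 genes 11 kept under 0.5 of their log2 fold change (median from -0.96 to -0.66), whereas the 11 higher genes tested all kept more, at a median of 0.924. Without vehicle replicate 3, LPA replicate 1 or vehicle replicate 1, the numbers called were 18, 19 and 37.

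Among the genes that rose, Ide, the insulin-degrading enzyme, had 87.2, 87.7 and 79.8 CPM in LPA libraries and 56.0, 44.3 and 59.0 in vehicle libraries (0.68 ± 0.118, adjusted p = 0.015, edgeR). Btaf1, a TATA-box factor at chr19:36926079-37012752, 256 kb before Ide at chr19:37268743-37337852, had 146, 144 and 162 CPM with LPA and 109, 101 and 115 with vehicle (0.48 ± 0.0916, adjusted p = 0.027). For both genes every LPA library lay above every vehicle library. Tnfrsf19, a TNF receptor family member of precursor cells and astrocytes, had 251, 257 and 255 CPM against 188, 189 and 168 (0.48 ± 0.0815, adjusted p = 0.014), and Rgs7, a regulator of G protein signaling, 892, 870 and 906 against 712, 681 and 662 (0.38 ± 0.0764, adjusted p = 0.0405). Apba2, an adaptor of synapses (0.40), Map3k19 (0.72), Ltbp1, which binds latent TGF-β (0.51), Galnt16, a glycosyltransferase (0.47), Gm973 (0.43) and the noncoding Gm41492 (0.50) also rose. Over the 20 alternatives Tnfrsf19 was called in 16, Ide in 15, Btaf1 in 11, Gm973 in 9, Rgs7 and Map3k19 in 7, Apba2 in 6 and Gm41492 in 4, each with the same direction throughout. Without LPA replicate 1, none of the 12 higher genes stayed called, and 11 kept their direction. Without vehicle replicate 3, 1 stayed called, and likewise 1 with at least 6 Slc6a11 and Agt UMIs. Ltbp1 and Galnt16 stayed called without the mitochondrial limit and without the filter on low counts, and were not called in Slc1a2-rich nuclei, without fibroblast UMIs, without Scrublet calls or with the sex term, at adjusted p of 0.085 to 0.15 and 0.069 to 0.15 (edgeR).

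C4b, a complement component of reactive astrocytes, had 26.0, 22.4 and 27.2 CPM with LPA and 13.3, 14.4 and 10.0 with vehicle (0.98 ± 0.185, adjusted p = 0.027). It was called in 10 of 20 alternatives, and the C4a copy may share its reads. It was the 1 gene of the 6 tested neuroinflammatory genes that rose (median 0.0779 beside -0.0079 over all genes), and of 7 pan-reactive genes none rose and Cp fell. Over all genes 0.0905% rose. The rule asks for little Gfap and removed more nuclei in LPA libraries, so these counts cover only nuclei chosen for little of a reactive gene. Cp was at -0.14 and not called without members holding Dcn, Col1a2, Slc47a1 or Cemip UMIs. Gpnmb, a lysosomal glycoprotein of activated microglia, was listed with 49 UMIs in LPA and 3 in vehicle libraries, a ratio per member UMI of 15.9 with a 95% counting interval of 5.13 to 79.7 (adjusted p = 0.0044). Gpnmb could be tested in 12 of the 20 alternatives and was called in 11, not with DESeq2. It passed the filter on low counts only through the LPA libraries, with 21, 19 and 9 UMIs against 1, 1 and 1 with vehicle. Its test and these calls therefore add no support beyond the counts. These UMIs lay in 30 members, up to 11 in a nucleus. Microglial nuclei had at least 4 UMIs of Csf1r, Cx3cr1 and P2ry12 and at most 1 of the astrocyte genes. They made up 4.21% ± 0.610 of LPA and 2.11% ± 1.14 of vehicle libraries without overlap. The 16 microglial genes summed to 143, 122 and 123 plain CPM in members of LPA libraries and 78.7, 136 and 97.6 in vehicle libraries, with none at 0. The part of microglial RNA in the Gpnmb difference was not tested.

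Of 16 glucocorticoid response genes Fkbp5 and Errfi1 fell and none rose (median -0.288). Fkbp5, a chaperone of the glucocorticoid receptor that the hormone induces, had 36.7, 35.4 and 40.3 CPM with LPA and 70.9, 95 and 113 with vehicle (-1.31 ± 0.151, adjusted p = 0.0017). The groups lay well apart, and Fkbp5 was called in each of the 20 alternatives, at -1.52 to -1.11. Errfi1, an inhibitor of the EGF receptor, had 14.2, 13.3 and 14 CPM against 28.2, 34.3 and 26.3 (-1.10 ± 0.170, adjusted p = 0.0076) and was called in 18 of 20. It was not called without Scrublet calls (-0.86, adjusted p = 0.13, edgeR). Nor was it called without members holding Dcn, Col1a2, Slc47a1 or Cemip UMIs (-0.83, adjusted p = 0.20, edgeR). Meningeal nuclei held Errfi1 at 3.76 times the level in members. Zbtb16 (-0.51 ± 0.134, adjusted p = 0.14) and Tsc22d3 (-0.43 ± 0.130, adjusted p = 0.20), both induced by glucocorticoids, did not pass the test.

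**Figure D4:**
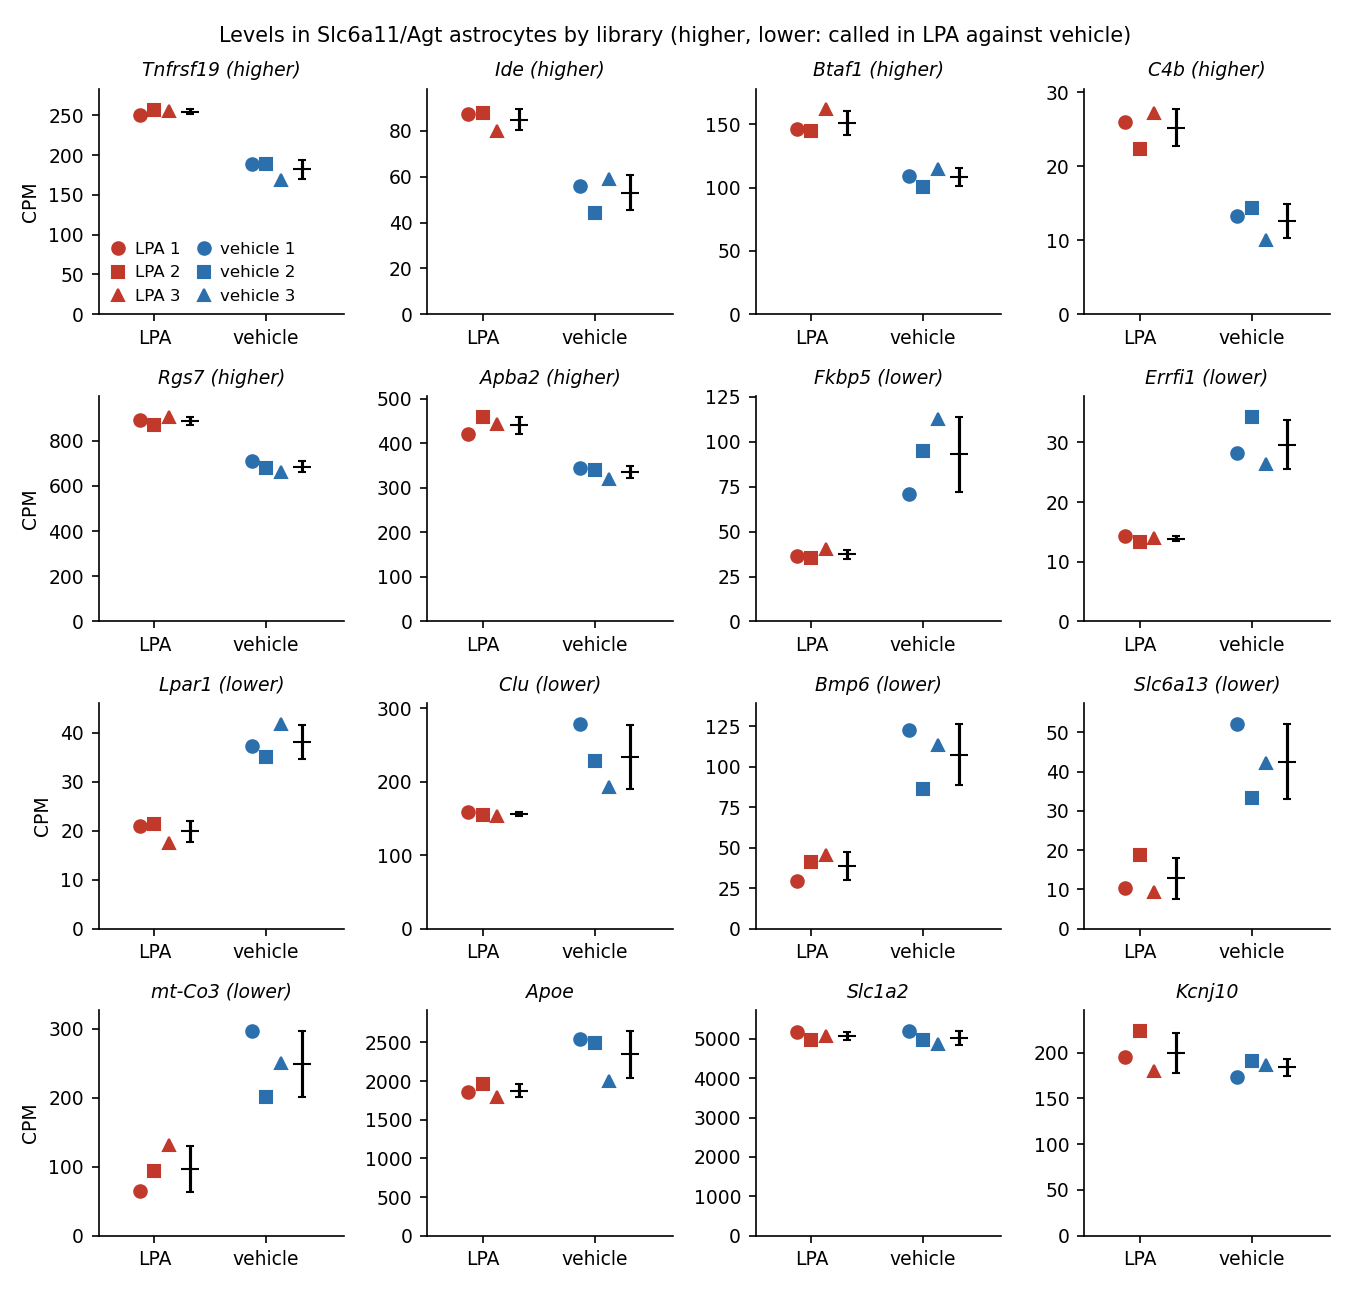
Levels of 16 genes in Slc6a11 Agt astrocytes (CPM after TMM scaling, axes from 0), with 1 point per library and bars for mean ± SD of 3 libraries. LPA and vehicle libraries do not overlap for genes such as Ide, Tnfrsf19, Fkbp5, Bmp6 and mt-Co3, and the vehicle libraries of Fkbp5 spread from 70.9 to 113.

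Many of the 41 nuclear genes that fell were more abundant in meningeal nuclei than in members. Bmp6, a growth factor, had 29.2, 41.1 and 45.4 CPM with LPA and 123, 86.1 and 113 with vehicle (-1.48 ± 0.159, adjusted p = 0.0013), Slc6a20a, a proline transporter, 39.9, 59.9 and 39.9 against 170, 119 and 98.3 (-1.47 ± 0.187, adjusted p = 0.003), and Slc6a13 10.3, 18.8 and 9.34 against 52.2, 33.3 and 42.2 (-1.71 ± 0.231, adjusted p = 0.0032). Each LPA library lay below each vehicle library for all 3. The mesenchymal factors Ebf2 (-2.36 ± 0.302) and Tbx15 (-1.59 ± 0.209), the retinaldehyde dehydrogenase Aldh1a2 (-2.21), the prostaglandin synthase Ptgds (-1.50 ± 0.280), the growth factor Igf2 (-1.52) and the adhesion protein Vtn (-1.26 ± 0.163) fell too. Ebf2 UMIs lay in 49 members with up to 28 in a nucleus, and Slc6a20a UMIs in 305 with up to 80. Meningeal nuclei were defined by at least 4 UMIs of Dcn, Col1a2, Slc47a1 and Cemip and at most 1 of the astrocyte genes. They held these 41 genes at a median of 7.15 times the level in members, and at 10 times or more for 9 of them. Meningeal nuclei made up 2.67% ± 0.244 of nuclei in LPA and 4.54% ± 0.316 in vehicle libraries, without overlap. The 14 vascular and meningeal genes summed in members to 281, 276 and 331 plain CPM with LPA and 570, 491 and 478 with vehicle. Slc6a20a gave the most, and none was at 0.

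Leaving out members with any UMI of Dcn, Col1a2, Slc47a1 or Cemip, a choice made after the data were seen, gave 26 called genes of 12102 (0.215%), 5 higher (0.0413%) and 21 lower (0.174%). Of the 41 nuclear genes 6 stayed called: Fkbp5 (-1.11), Vtn (-1.50), the protease inhibitor Cst3 (-0.68), the lipid-binding chaperone Clu (-0.67), the respiratory chain subunit Cox8a (-0.70) and the hemoglobin gene Hba-a1 (-1.73). Of the 12 higher genes Ide (0.72) and C4b (1.24) stayed called, and all 10 mitochondrial genes did. The 11 higher genes that could be tested all kept their sign, at a median of 0.997 of their log2 fold change. Bmp6 (-0.99), Slc6a20a (-1.50), Slc6a13 (-2.0), Ptgds (-1.37), Errfi1 (-0.83), Cp (-0.14) and Lpar1 (-0.78) did not pass, with fewer nuclei in the test. Of the 41 genes 37 could be tested, and all 37 kept their sign. For 25 the log2 fold change kept 0.5 or more of its size with all members, as for Slc6a20a and Ptgds, and for 12 it kept less, as for Tbx15 (-0.75) and Cp. The median of the 37 went from -0.96 with all members to -0.70. Ebf2 and Aldh1a2 were among the 4 not tested. The part of meningeal RNA in these differences was not tested further.

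Of 22 genes of lipid transport and sterol synthesis, only Clu was called. It had 159, 155 and 153 CPM with LPA and 279, 228 and 193 with vehicle (-0.58 ± 0.111, adjusted p = 0.027), and the median of the list was 0.0618. Clu was called in 10 of 20 alternatives, and not with the sex term or in 5 of the 6 fits that left out a library. Apoe had 1862, 1960 and 1795 CPM against 2546, 2495 and 1999 without overlap (-0.33 ± 0.0912), and did not pass (adjusted p = 0.17). Cst3, abundant in astrocytes and microglia, had 736, 792 and 699 CPM against 1333, 1252 and 922 (-0.66 ± 0.114, adjusted p = 0.016). Lpar1, the LPA receptor gene most abundant in oligodendrocytes and also found in meninges, had 21.0, 21.3 and 17.4 CPM against 37.4, 35.0 and 41.8 (-0.92 ± 0.149, adjusted p = 0.0098). It was the 1 gene of 12 in the list of LPA and sphingosine phosphate signaling that was called. Members carried Lpar1 at 28.7 plain CPM, meningeal nuclei 209 and oligodendrocytes 285. At full depth, which differed between the classes, Lpar1 was detected in 9.07% ± 2.24 of members and 73.2% ± 3.53 of oligodendrocytes. The oligodendrocyte genes summed in members to 717, 919 and 726 plain CPM with LPA and 829, 1054 and 993 with vehicle, and oligodendrocyte nuclei made up 14% ± 0.848 and 19.0% ± 1.12 of nuclei. Whether Lpar1 in members came from these cells was not tested.

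The 10 mitochondrial genes, from -1.08 (mt-Co1) to -2.01 (mt-Nd3), were lower in every LPA library than in any vehicle library, as mt-Co3 was at 64.8, 93.4 and 131 against 297, 201 and 250 CPM (-1.38 ± 0.184, adjusted p = 0.0032). All 10 kept their sign when a library was left out, but 2 were still called without vehicle 3, 4 without LPA 1 and 4 without vehicle 1, mt-Co3 and mt-Atp6 among them each time. Mitochondrial UMIs made up 0.0267%, 0.0385% and 0.0598% of a member's UMIs on average in LPA libraries and 0.141%, 0.0851% and 0.115% in vehicle libraries. Mitochondrial transcripts do not belong to the nucleus, and the difference was also present in other nuclei, with a median log2 ratio of -1.48 in members, -1.34 in other astrocytes with little Gfap, -1.39 in oligodendrocytes and -1.34 over all kept nuclei. It moves with treatment as the called genes do, and its part in them was not tested. The mitochondrial genes also count toward the 1% limit of the rule, and without that limit all 10 stayed called.

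Slc6a9 and Kcnj10, which were higher in members than in the other class, and the general astrocyte gene Slc1a2 were not called. Slc6a9 had 121, 134 and 98.0 CPM with LPA and 114, 129 and 118 with vehicle (-0.03 ± 0.110), Kcnj10 195, 224 and 180 against 173, 191 and 187 (0.12 ± 0.0922) and Slc1a2 5162, 4982 and 5069 against 5202, 4973 and 4861 (0.02 ± 0.0649). All 3 overlapped between groups, with adjusted p of 0.95, 0.70 and 0.96 (edgeR). None of 16 posterior, 9 telencephalic, 10 GABA receptor, 11 glutamate, 13 ion transport or 13 endfoot genes was called, against a background of 0.475%. Under the threshold for the call were the astrocyte factor genes Rfx4 (0.41 ± 0.0897, adjusted p = 0.061) and Npas3 (0.31 ± 0.0710, adjusted p = 0.077) and Gabbr2 (0.38 ± 0.0859, adjusted p = 0.076), all higher in each LPA library than in any vehicle library, as 16.3% of the genes tested were apart in either direction.

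The called genes were also read in other nuclei of the same 6 brains, on plain CPM. The 12 genes that rose in members had a median log2 ratio of LPA to vehicle of 0.455 there, 0.511 in other astrocytes with little Gfap, 0.293 in oligodendrocytes and 0.479 over all kept nuclei. The libraries lay apart upward for 11, 5 and 12 of the 12 genes in these 3 classes, beside 7.35%, 5.49% and 12.4% of all genes tested. Ide gave 0.64 in members, 0.75 in the other class, 0.58 in oligodendrocytes and 0.64 over all nuclei, and Btaf1 gave 0.44, 0.32, 0.33 and 0.38. Tnfrsf19 gave 0.44 in members and 0.09 in oligodendrocytes, where its groups overlapped. The 41 nuclear genes that fell had medians of -1.07, -0.986, -0.525 and -0.640, and the libraries lay apart downward for 37, 27 and 35 of them in the other class, in oligodendrocytes and over all nuclei, beside 14.9%, 11.7% and 14.8% of all genes tested. Fkbp5 gave -1.35 in members, -1.70, -0.62 and -0.92, and Clu gave -0.62, -0.25, -0.20 and -0.16. The classes share their libraries, so these values are not independent of each other.

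**Figure D5:**
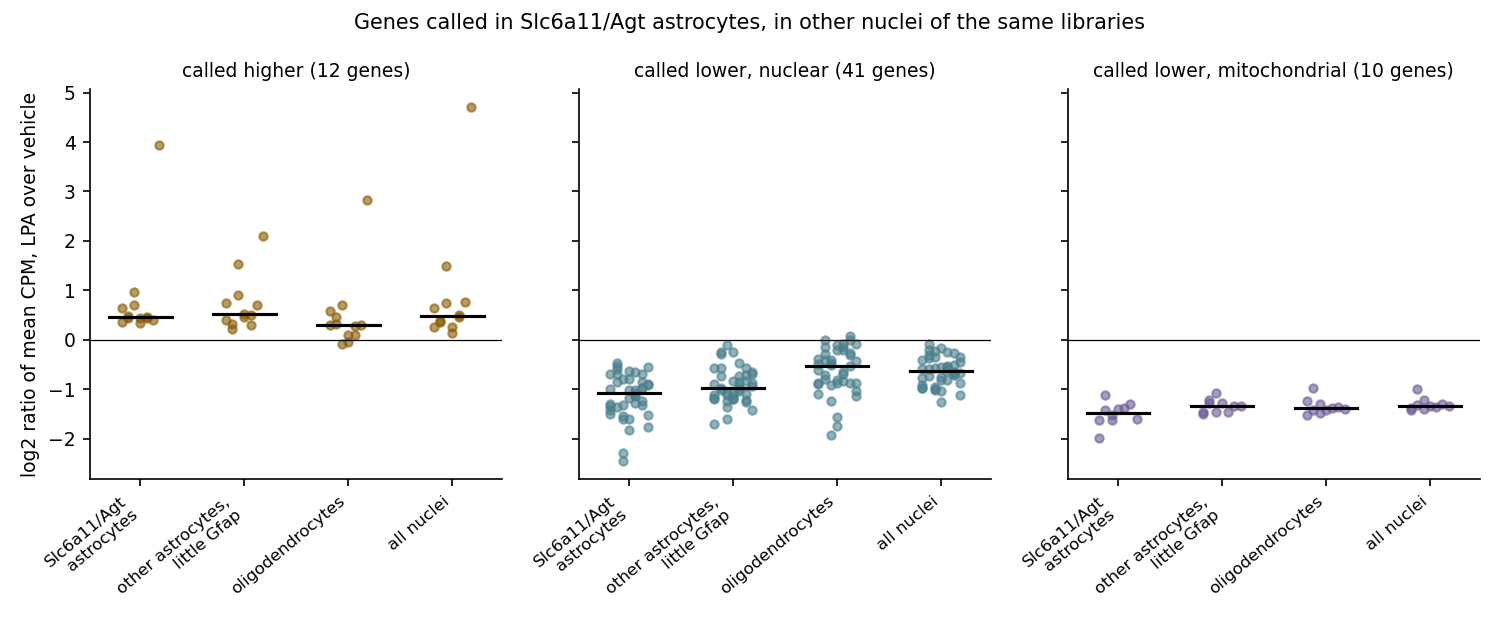
Log2 ratio of LPA to vehicle (means of 3 libraries, plain CPM) for the genes called in Slc6a11 Agt astrocytes, read in members, other astrocytes with little Gfap, oligodendrocytes and all kept nuclei, with 1 point per gene and a line at the median. The medians keep their side of 0 in all classes and lie nearest to 0 in oligodendrocytes, except for mitochondrial genes.

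Whether members and other astrocytes with little Gfap differed in their response was tested as the interaction of class and treatment. edgeR called none of 14426 genes, with 951 (6.59%) at an unadjusted p under 0.05, and DESeq2 called none either. The 0 did not hold throughout: edgeR called 69 genes without vehicle 1, 3 without vehicle 3, 2 without LPA 1, 91 without the Gfap limit and 19 without Scrublet calls. In the other class on its own, 361 of 14610 genes were called (2.47%), 126 higher (0.862%) and 235 lower (1.61%), so the lower number in members is not shown to be a difference. The lowest adjusted p was 0.085. It was shared by Ebf2, at 4.16 CPM ± 2.50 with LPA and 22.2 ± 2.31 with vehicle in members and at 12.1 ± 9.30 and 12.7 ± 1.69 in the other class (-2.30 ± 0.373), by Mok, a kinase of cilia, at 35.4 ± 4.40 and 42.5 ± 6.84 in members and 81.8 ± 10.4 and 51.1 ± 16.4 in the other class (-0.96 ± 0.160), and by Ildr2 (0.60), Prune2 (-0.93), Col25a1 (0.78) and Sned1 (0.65). Named because they shared this p, these 6 genes were chosen after their values were seen.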

How the data were processed

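Nuclei were sequenced from 3 LPA and 3 vehicle mouse brains. Per the labels and the study's methods, the authors aligned reads to mm10 pre-mRNA with Cell Ranger 4.0.0 and deposited UMI counts per gene and barcode, 1 matrix per library, not normalized. The study's cutoff on outlying UMI totals was not applied. Members and gene lists were chosen with earlier results of these data known. Counts were summed per library and class and tested with edgeR 4.0.16 (quasi-likelihood test, TMM, filterByExpr, Benjamini-Hochberg adjustment). Comparisons of classes had the library as a block and left out the 11 rule genes. A call needed an adjusted p below 0.05 and 0.25 or more on the log2 scale in either direction. Genes named by rule were the 10 called genes of lowest p in each direction with LPA, the 8 largest differences from the other class among genes with a mean of at least 20 CPM, the 5 largest from Gfap-rich astrocytes and the 3 of lowest p in each list. Shares were compared with exact permutation tests (20 assignments). Doublets were scored with Scrublet (scanpy 1.11.5, expected rate 0.08) and kept, and left out in an alternative. Alternatives used DESeq2 1.42.0 and other limits, filters, scalings and libraries. Intervals cover counting error only. Positions are from the GENCODE annotation of GRCm38. Each library is 1 mouse, so p-values of LPA against vehicle and of the shares measure the spread between mice. In comparisons of classes and in the interaction the library block takes out the level of each mouse. Their p-values measure how the class difference varies between libraries, among nuclei sorted by the rule. The scripts were tested on simulated data. Results for some genes are not reported here.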

Additional observations from a re-analysis of the deposited data

How the results depend on the processing

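The difference in share of members kept its sign under the alternatives, at 0.383 to 1.23 percentage points, except over nuclei with the 5 astrocyte genes, where it was -1.68, and leaving out each library in turn gave 0.0438 to 0.843. The 63 genes called for LPA numbered 29 with at least 6 Slc6a11 and Agt UMIs, 26 without members holding Dcn, Col1a2, Slc47a1 or Cemip UMIs, 246 without the filter on low counts, 40 with the sex term and 38 with equal numbers of nuclei, and 18 to 69 when each library was left out (18 without vehicle 3, 19 without LPA 1, 37 without vehicle 1). The difference from other astrocytes with little Gfap fell to 1569 genes in Slc1a2-rich nuclei, where Trpv4 (0.0514), Cp (0.15), Plpp3 (-0.0802) and Dock8 (0.26) changed sign. Otx2 did so too and was called in both directions. Rbfox3 changed sign at 3000 to 10000 UMIs (-0.12) and without Scrublet calls (-0.31). The difference from Gfap-rich astrocytes ranged from 928 (without LPA 1) to 1569 genes with a library left out. The interaction, with 0 genes called by edgeR, gave 91 without the Gfap limit, 1 at 3000 to 10000 UMIs, 19 without Scrublet calls, 2 in Slc1a2-rich nuclei, 92 without the filter on low counts, and 0 to 69 with a library left out (69 without vehicle 1, 3 without vehicle 3, 2 without LPA 1). The causes of these changes were not tested. The alternatives with Slc1a2-rich nuclei and without fibroblast UMIs were chosen after seeing the data. Same-numbered libraries did not all deviate together (correlations across genes of 0.300, 0.405 and -0.199), LPA 3 correlated best with vehicle 2 and vehicle 3 with LPA 1, so the numbers were not taken as pairs. With a replicate block 61 genes were called for LPA, 54 of them among the 63, and the share gave p = 0.25 (exact paired permutation test, the smallest possible). Depth limits low genes: members held 2389567 to 2924880 UMIs per library.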
